A study of Mus musculus with 12 samples.

Results

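The genes of antigen presentation and of the interferon response form a list of 35 members among the 21887 protein-coding genes that the RefSeq gene table places on chromosomes 1 to 19, X and Y of the mouse. They were taken by name and not by a rule on measured values, although the list was chosen with earlier results of these data known. For each gene the deposited histone peaks up to 50 kb from its ends were collected on build mm10. Presence of a mark means a peak within 1 kb of either end of the gene model, and covered bases are the bases under peaks within 50 kb of those ends, the gene body included only as far as it lies in that reach. The data are chromatin immunoprecipitation sequencing (ChIP-seq) peak lists from mouse melanoma cells grown in DMEM/F12 with serum. Line 493, labelled Kmt2d mutant, is set against line 971, labelled Kmt2d wild type (WT). Each line has 1 library for each of 4 histone marks, H3K4me3, H3K27ac, H3K4me1 and H3K27me3, with 4 input libraries besides. There are therefore no replicates, no test was possible, and every difference below is one between 2 libraries. The labels name no allele, tumour of origin or treatment, and they do not say that the lines share a parent, so Kmt2d genotype and line cannot be told apart.

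MHC class I molecules show peptides from inside the cell to cytotoxic T cells. The peptides are cut by the immunoproteasome, carried into the endoplasmic reticulum by the Tap transporter and loaded with the help of chaperones. Interferons bind receptors that signal through Jak kinases to Stat and Irf transcription factors, which switch on both the presentation genes and antiviral effectors, while Socs proteins damp the signal. H3K4me3 marks active or poised promoters, H3K27ac active promoters and enhancers, H3K4me1 enhancers, and H3K27me3 regions silenced by Polycomb. Kmt2d encodes a methyltransferase that places H3K4me1 at enhancers.

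The lists differ in length over the whole genome, and all counts below were read against that. The mutant lists held 17987 H3K4me3, 18751 H3K27ac and 3649 H3K4me1 peaks, against 23154, 26415 and 17373 in the WT lists. Read depth is not given in the sources used here, so the part of depth in these lengths was not tested. Peak scores and p values are the authors' and are used only to place a peak within its own list, as a percentile where a higher value is a more significant peak. Calls were repeated at 2.5 kb, in windows of 20 and 100 kb, with the longer list shortened to equal length and in the more significant 50% of each list, and where such a setting ended a difference in the gene-end state of an active mark, this is given beside it. H3K27ac peaks were short, with a median of 107 bp in the mutant list and 116 bp in the WT list. The mutant H3K27me3 list, of 1300 regions, names the WT H3K27me3 library as its control in its file name and so holds regions higher in the mutant line. It is not comparable in number with the WT list of 25394 peaks. Gene-end H3K4me3 was found at 4 of 7 melanocyte markers in line 493 (Mitf, Sox10, Pmel and Mlana) and at 2 in line 971 (Mitf and Pmel), while the pigment enzymes Dct, Tyr and Tyrp1 had none in either. Of 5 immune cell markers, Cd68 alone carried the mark at an end, in both lines, and Ptprc, Cd3e, Itgam and Csf1r had none. Fibroblast markers with the mark numbered 2 of 4 in the mutant line and 3 of 4 in the WT line, and endothelial markers 1 of 3 in each. Of all protein-coding genes, 55.0% had gene-end H3K4me3 in both lines, 1.68% in the mutant line alone and 1.37% in the WT line alone. Beside those shares the marker counts are too few to name a cell identity.

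Most of the presentation and interferon genes carried H3K4me3 in both lines. A gene-end H3K4me3 peak was present in both lines for 31 of the 35 genes, beside 55.0% of all protein-coding genes. Ifit3 had it in the mutant line alone, where the share over all genes was 1.68%, and none had it in the WT line alone, where that share was 1.37%. H2-Aa, Ciita and Oas2 had no gene-end H3K4me3 in either line. H3K27ac was the mark whose presence differed most often: 3 genes had a gene-end peak in the mutant line alone and 12 in the WT line alone. The shares over all genes were 6.84% and 16.1%. A further 6 genes had H3K27ac in both lines, beside 12.6% of all genes. Among genes with gene-end H3K4me3 in both lines (31 of this set and 12040 in all), the mutant line alone had H3K27ac at 2 of the 31, beside 11.0% of the 12040. The WT line alone had it at 12 of the 31, or 38.7%, beside 27.1%. H3K4me1 lay at a gene end of 1 gene in the mutant line alone and of 3 genes in the WT line alone, beside 1.79% and 3.73% of all genes, and in both lines of none, beside 0.475%.

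**Figure D1:**
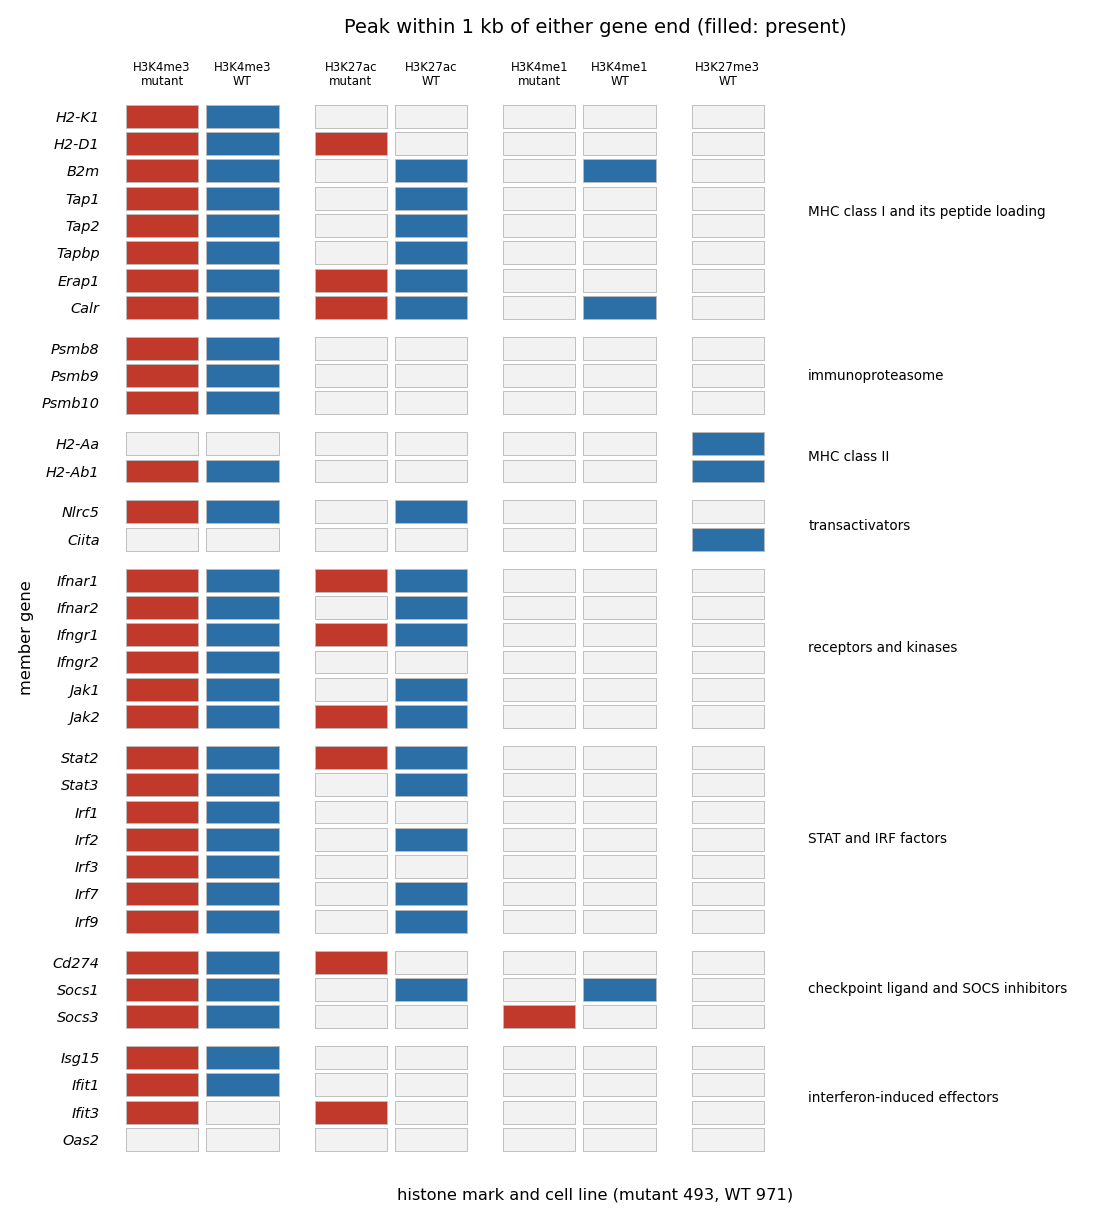
Presence of a peak within 1 kb of either end of each of the 35 genes, by mark (columns) and line (red, mutant 493; blue, WT 971; grey, no peak), with the genes grouped by role. H3K4me3 is filled in both lines for 31 genes, H3K27ac in the WT line alone for 12 and in the mutant line alone for 3, and WT H3K27me3 for H2-Aa, H2-Ab1 and Ciita.

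Covered bases around the genes were fewer in the mutant line at the median for all 3 active marks. The median H3K4me3 coverage per gene was 8.04 kb in the mutant line and 8.93 kb in the WT line, and the median of the differences was -0.865 kb. Over all protein-coding genes the medians were 4.46 kb and 4.86 kb, and over the 12040 genes with gene-end H3K4me3 in both lines they were 7.01 kb and 7.79 kb with a median difference of -0.517 kb. For H3K27ac the genes had medians of 358 bp in the mutant line and 467 bp in the WT line, against 238 bp and 435 bp over those 12040 genes. For H3K4me1 the medians were 0 bp in the mutant line and 403 bp in the WT line, against 0 bp and 381 bp.

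Genes were also counted past a 1.5-fold difference in covered bases (bases in 1 line and none in the other count as past it). H3K4me3 coverage was at least 1.5-fold less in the mutant line for 2 genes, Irf2 and Socs3, and at least 1.5-fold more for Ifit3, beside 8.19% and 3.28% of all genes. H3K27ac coverage was less by that fold for 14 genes, or 40.0%, beside 42.3% of all genes. It was more for 8 genes (Calr, Ciita, Ifit1, Ifit3, Ifnar1, Irf7, Jak1 and Jak2), or 22.9%, beside 11.8%. H3K4me1 coverage was less for 16 genes, or 45.7%, beside 38.4%, and more for 6 genes (Calr, H2-K1, Ifngr1, Irf9, Stat2 and Tapbp), or 17.1%, beside 8.03%. Among the genes with gene-end H3K4me3 in both lines, less H3K27ac was found at 14 of 31 (45.2%), beside 54.3% of the 12040, and less H3K4me1 at 15 of 31 (48.4%), beside 50.4%. More H3K27ac was found at 6 of the 31 (19.4%), beside 13.4%, and more H3K4me1 also at 6 (19.4%), beside 11.6%. The share with less H3K27ac was below this background. The share with less H3K4me1 was close to it, and above that of all genes. Shares with more of either mark were above both backgrounds. These gaps rest on few genes, some of them neighbours, and were not tested.

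**Figure D2:**
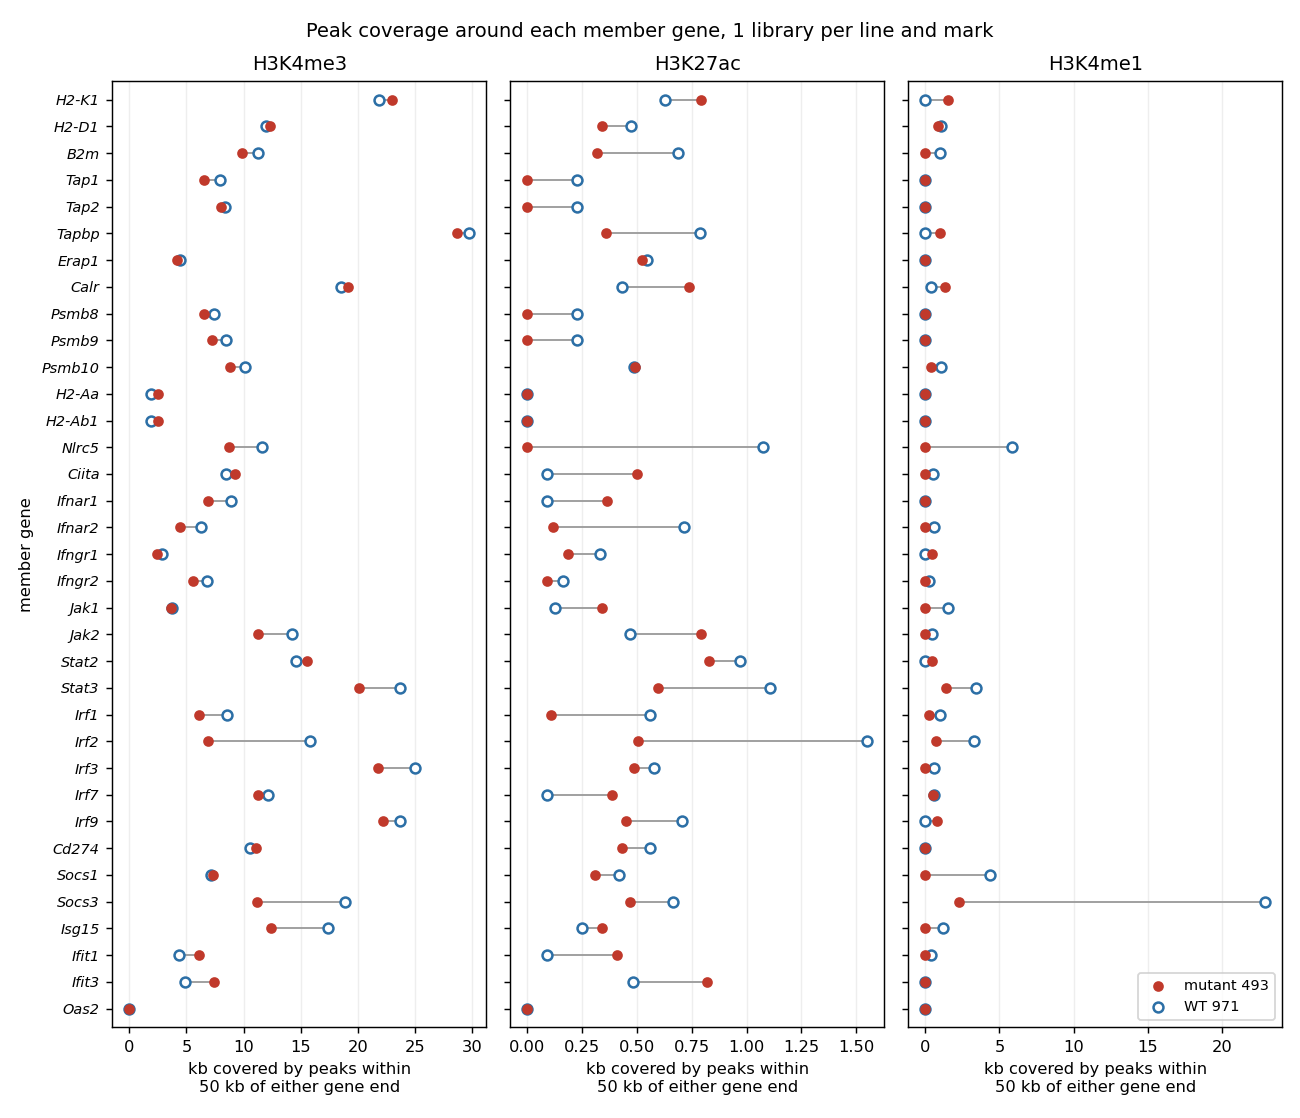
Kilobases covered by peaks within 50 kb of either end of each gene (x axes, a scale per mark), with the mutant line as filled red points and the WT line as open blue circles, 1 library each. Most pairs of points lie close together for H3K4me3, Nlrc5 and Irf2 stand apart for H3K27ac, and Socs3 stands apart for H3K4me1 at 2.27 kb in the mutant line and 22.9 kb in the WT line.

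Several of the genes are neighbours and share peaks, so they are not independent. The 35 genes fall into 27 distinct windows, and 5 of these hold 15 genes together: Tap1, Tap2, Psmb8, Psmb9, H2-Aa and H2-Ab1; Tapbp and H2-K1; Ifnar1, Ifnar2 and Ifngr2; Jak2 and Cd274; Ifit1 and Ifit3. With each window counted once, they held 130 H3K4me3, 87 H3K27ac and 29 H3K4me1 peaks of the mutant lists, against 152, 108 and 82 of the WT lists. WT coverage in the windows was 1.13 times the mutant coverage for H3K4me3, 1.29 times for H3K27ac and 4.35 times for H3K4me1. Over the whole lists those ratios were 1.17, 1.51 and 6.27. Of the mutant H3K27ac peaks in the windows 49.4% had a WT peak within 1 kb, against 38.8% of the whole mutant list. For the WT peaks these shares were 39.8% and 30.1%. Few H3K27ac peaks shared a base with the other line, 19.5% in the windows against 12.2% for mutant peaks, and 15.7% against 8.65% for WT peaks. The 1 kb shares of H3K4me3 were 95.4% against 92.7% (mutant) and 83.6% against 75.7% (WT). For H3K4me1 the mutant share was lower in the windows, 34.5% against 47.2%, and the WT share was 12.2% against 11.6%.

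RefSeq promoter windows of build GRCm38.p6, the assembly of mm10, were at hand for 30 of the 35 genes (33 windows, from 250 bases before to 50 bases after the start). Tap2, H2-Ab1, Nlrc5, Ciita and Oas2 had no entry. An H3K4me3 peak overlapped the promoter of 28 of the 30 genes in the mutant line and of 28 in the WT line, the exceptions in both being H2-Aa and Ifit3. Over all 32851 promoter windows the shares were 41.5% and 41.6%. An H3K27ac peak overlapped the promoter of Erap1 alone, in both lines. Over all windows the shares were 3.08% in the mutant line and 5.28% in the WT line, so such overlap was rare throughout. The H3K27ac peaks described below likewise flank the start more often than they cover it. The windows were searched on both strands for 3 short motifs, with overlapping matches allowed. The core of the interferon-stimulated response element (ISRE), to which Irf factors and the Stat2 complex bind, was searched as GAAA, any 2 bases and GAAA, and was in 8 of the 33 windows (24.2%) and in 3.44% of all windows. TTCNNNGAA, the gamma-activated sequence (GAS) bound by Stat dimers, was in 6 windows (18.2%) and in 8.30% of all. CCAAT, the box bound by the factor NF-Y, was in 18 windows (54.5%) and in 37.4% of all. A match is a description of the letters and not a measured binding site. CpG dinucleotides per window ranged over 1 to 44 with a median of 15, against a median of 7 over all windows.

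The MHC class I genes kept H3K4me3 in both lines and differed in H3K27ac. B2m encodes the light chain that every class I molecule needs, and lies at chr2:122147687-122153082. Its gene-end H3K4me3 peak was 6.21 kb wide in the mutant line and 6.43 kb in the WT line. No H3K27ac peak lay within 1 kb of a B2m end in the mutant line, against peaks of 119 bp and 236 bp upstream of the start in the WT line. The wider of these stood at percentile 93.6 of the WT list by the authors' p value. A B2m H3K4me1 peak of 270 bp at the same end was likewise in the WT list alone, a call that lists of equal length ended, and H3K4me1 covered 0 bp of the window in the mutant line and 960 bp in the WT line. Over the whole B2m window H3K27ac was present in both lists, covering 318 bp in the mutant line and 686 bp in the WT line. H2-D1 (chr17:35263094-35267497), a class I heavy chain, had the opposite gene-end state, with an 89 bp H3K27ac peak before its start in the mutant line and none at a gene end in the WT line. That peak stood at percentile 43.6 of the mutant list, and 89 bp is the smallest width in it, shared by 34.6% of its peaks. The call did not hold in the more significant 50% of each list, and H3K27ac over the H2-D1 window covered 342 bp in the mutant line and 472 bp in the WT line, less in the mutant line as at B2m. H3K4me3 at H2-D1 was 2.68 kb wide in the mutant line and 2.75 kb in the WT line. H2-K1, the other classical heavy chain on the list, had gene-end H3K4me3 of 2.29 kb in the mutant line and 1.92 kb in the WT line and no gene-end H3K27ac in either. The promoters of B2m (chr2:122147437-122147736, plus strand) and H2-D1 (chr17:35262844-35263143, plus strand) are shown because they carry H3K4me3 in both lines and opposite gene-end H3K27ac states beside it. Capitals mark an ISRE and a CCAAT box on either strand in B2m and 2 CCAAT boxes in H2-D1.
B2m promoter: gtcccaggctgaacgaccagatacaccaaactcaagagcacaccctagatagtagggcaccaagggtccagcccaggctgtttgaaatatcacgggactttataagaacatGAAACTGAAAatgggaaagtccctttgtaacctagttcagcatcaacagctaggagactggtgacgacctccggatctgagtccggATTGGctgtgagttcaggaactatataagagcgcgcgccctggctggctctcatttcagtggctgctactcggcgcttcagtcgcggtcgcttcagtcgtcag
H2-D1 promoter: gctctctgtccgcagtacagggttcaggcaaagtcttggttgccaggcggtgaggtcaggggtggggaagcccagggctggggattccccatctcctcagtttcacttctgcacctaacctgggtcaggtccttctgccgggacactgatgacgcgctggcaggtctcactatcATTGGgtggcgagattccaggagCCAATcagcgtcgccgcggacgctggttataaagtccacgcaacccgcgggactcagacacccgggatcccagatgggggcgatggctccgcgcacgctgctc

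The peptide transporter and loading genes all had gene-end H3K4me3 in both lines. Tap1 and Tap2, which pair to form the transporter, had gene-end H3K4me3 of 4.19 kb and 1.79 kb in the mutant line, against 4.90 kb and 2.05 kb in the WT line. The Tap1 width is a sum over a peak at each gene end, and these are also the gene-end peaks of Psmb9 and Psmb8 given below. Tap1 and Tap2 each had a gene-end H3K27ac peak in the WT line alone, of 139 bp at Tap1 and 88 bp at Tap2, at percentiles 23.8 and 20.8 of that list. Both calls ended in the equal-length lists, and also in the more significant 50%. No H3K27ac peak of the mutant list lay within 50 kb of Tap1, Tap2, Psmb8 or Psmb9, where the WT list covered the same 227 bp for all 4 genes. Tapbp, which encodes tapasin and bridges the transporter to class I, also had H3K27ac in the WT line alone, a 115 bp peak just past the end of the gene that lies away from its start, and this call ended under the same settings. H3K27ac covered 358 bp of the Tapbp window in the mutant line and 789 bp in the WT line. Erap1, the aminopeptidase that trims peptides, had H3K27ac in both lines, covering 524 bp of its window in the mutant line and 546 bp in the WT line. Calr, the chaperone calreticulin, had gene-end H3K27ac in both lines and more of it in the mutant window, 736 bp against 431 bp in the WT window. A 200 bp H3K4me1 peak at the start of Calr was in the WT list alone, a call that held neither at 2.5 kb nor in a shortened list, and H3K4me1 covered 1.30 kb of the Calr window in the mutant line and 0.403 kb in the WT line.

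The immunoproteasome genes Psmb8, Psmb9 and Psmb10, which encode its catalytic subunits, had no gene-end state that differed. Their gene-end H3K4me3 was 1.85 kb, 2.33 kb and 2.94 kb wide in the mutant line, against 2.28 kb, 2.62 kb and 3.23 kb in the WT line, so each was slightly narrower in the mutant line. The Psmb8 and Psmb9 peaks are those summed for Tap1, so these widths are not independent of the Tap1 width. None had gene-end H3K27ac or H3K4me1 in either line. At 2.5 kb Psmb9 had H3K27ac in the WT line alone, from the same 139 bp peak as Tap1.

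The MHC class II genes had little or no active marking and carried WT H3K27me3. A gene-end H3K27me3 peak of the WT list was present at 3 of the 35 genes (8.57%), close to the 9.94% of all genes. These 3 were H2-Aa and H2-Ab1, which encode the class II alpha and beta chains, and Ciita, the transactivator that class II genes depend on. H2-Aa (chr17:34282744-34287823) had 3 such peaks of 933, 210 and 223 bp and no gene-end H3K4me3 in either line. H2-Ab1 had a weak H3K4me3 peak of 0.828 kb in the mutant line and 0.977 kb in the WT line, at percentiles 22.2 and 35.8 of their lists. H3K27ac and H3K4me1 were absent from the windows of both class II genes in both lines. Ciita (chr16:10480014-10531064) had a 240 bp H3K27me3 peak in the WT line and no gene-end H3K4me3 in either. That H3K27me3 peak stood at percentile 33.5 of the WT list, and the call ended in the more significant 50%. H3K27ac elsewhere in the Ciita window covered 502 bp in the mutant line and 88 bp in the WT line. Since the mutant H3K27me3 list was not called against input, the level of H3K27me3 at these genes in the mutant line is not analysed here, beyond the fact that no mutant-higher region lay within 50 kb of them. Of the immune cell markers read here, Cd68 alone had gene-end H3K4me3, in both lines.

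Nlrc5, the transactivator of class I genes, kept its promoter mark while the other active marks around it were in the WT lists alone. Nlrc5 lies at chr8:94434335-94527272. The gene-end H3K4me3 peak was 2.35 kb wide in the mutant line and 2.39 kb in the WT line. H3K27ac had 0 peaks in the Nlrc5 window in the mutant line, against 9 peaks covering 1074 bp in the WT line. One of these, 196 bp wide, lay at the lower end of the gene model beside the H3K4me3 peak and stood at percentile 80.0 of the WT list. H3K4me1 likewise had 0 peaks in the mutant line, against 9 peaks covering 5.82 kb in the WT line, most of them beyond the upper gene end. Ordered by how far mutant coverage lay below WT coverage, Nlrc5 ranked 166 of 21887 genes for H3K27ac (the first 0.758%) and 472 for H3K4me1 (the first 2.16%). In the other windows and shortened lists the H3K27ac difference lay no nearer to 0 than -0.417 kb and the H3K4me1 difference than -0.622 kb. Its H3K4me3 coverage over the window was 8.68 kb in the mutant line and 11.6 kb in the WT line.

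**Figure D3:**
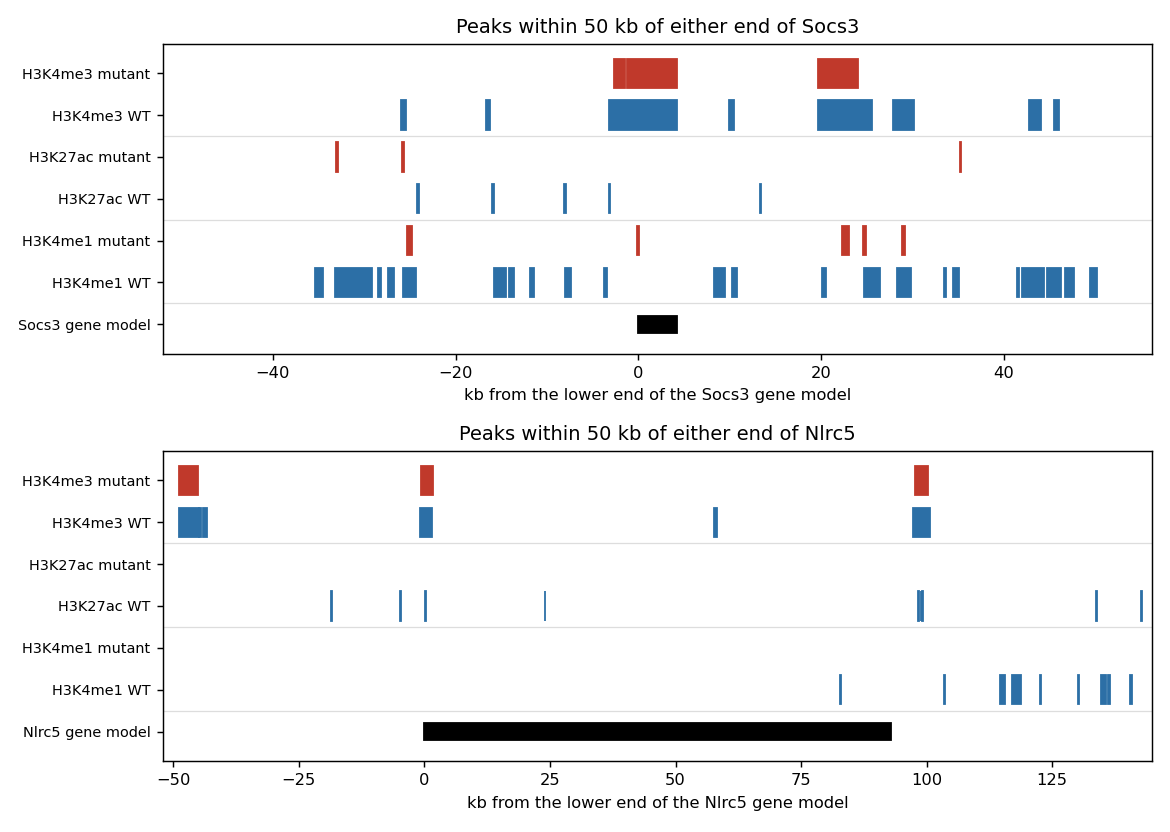
Peaks of H3K4me3, H3K27ac and H3K4me1 (rows; red, mutant; blue, WT) within 50 kb of either end of Socs3 and Nlrc5, by distance in kb from the lower end of the gene model (black bar). Around Socs3 the H3K4me1 row holds 5 peaks in the mutant line and 22 in the WT line, and around Nlrc5 the mutant H3K27ac and H3K4me1 rows are empty while H3K4me3 at the lower gene end is present in both lines.

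The receptor and kinase genes all had gene-end H3K4me3 in both lines and varied in H3K27ac. Ifnar1 and Ifnar2 form the type I interferon receptor, and Ifngr1 and Ifngr2 the receptor of interferon gamma. Ifnar1, Ifngr1 and the kinase gene Jak2 had gene-end H3K27ac in both lines, and Ifngr2 in neither. Ifnar2 (chr16:91372783-91405589) had H3K27ac peaks of 198 bp at its start and 131 bp at its other end in the WT line alone, the first at percentile 98.5 of the list. A mutant H3K27ac peak of 116 bp lay just outside the 1 kb reach of that other end, so that the difference in state ended at 2.5 kb, and H3K27ac covered 116 bp of the Ifnar2 window in the mutant line and 715 bp in the WT line. The summed width of its gene-end H3K4me3 was 4.40 kb in the mutant line and 5.85 kb in the WT line. Jak1, the kinase shared by both receptors, had a 124 bp H3K27ac peak near its start in the WT line alone, a call that ended in both shortened lists, and the window held more H3K27ac in the mutant line, 340 bp against 124 bp in the WT line. Jak2 had gene-end H3K4me3 of 5.01 kb in the mutant line and 6.55 kb in the WT line, and H3K27ac in its window covered 794 bp and 467 bp.

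Among the Stat and Irf factors, the largest differences were around Irf2. Irf2 encodes a factor that competes with Irf1 for the same sites, and lies at chr8:46739745-46847458. H3K4me3 covered 6.89 kb of its window in 3 peaks in the mutant line, against 15.8 kb in 8 peaks in the WT line. The gene-end peak itself differed less, at 5.35 kb in the mutant line and 6.08 kb in the WT line, so most of the difference lay in further WT peaks such as those of 2.11 kb and 0.877 kb inside the gene and of 1.54 kb and 1.48 kb beyond its upper end. H3K27ac covered 504 bp in 5 peaks in the mutant line, against 1551 bp in 10 peaks in the WT line. A 114 bp H3K27ac peak near the start was in the WT list alone, at percentile 93.0, and a mutant peak of 116 bp lay further into the gene, outside the 1 kb reach, so that this state did not differ at 2.5 kb. H3K4me1 covered 0.712 kb in the mutant line and 3.28 kb in the WT line, but this difference, mutant minus WT, turned from -2.57 kb to 0.229 kb in lists of equal length. The H3K4me3 difference of -8.88 kb was -2.88 kb within 20 kb and -0.73 kb in the more significant 50%, under 1.5-fold in both. That of H3K27ac, -1.05 kb, was -0.096 kb within 20 kb. In the same order Irf2 ranked 130 of 21887 genes for H3K4me3 and 204 for H3K27ac. The Irf2 promoter (chr8:46739495-46739794, plus strand) is shown because it is the single window of the set that holds all 3 motifs (capitals: ISRE, GAS and CCAAT in that order).
Irf2 promoter: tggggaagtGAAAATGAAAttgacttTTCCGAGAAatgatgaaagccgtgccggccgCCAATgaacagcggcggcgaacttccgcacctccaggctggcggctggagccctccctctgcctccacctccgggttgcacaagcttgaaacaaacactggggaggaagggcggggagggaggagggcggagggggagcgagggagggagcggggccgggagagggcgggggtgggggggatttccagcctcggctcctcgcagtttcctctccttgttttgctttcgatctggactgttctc

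Irf7 and Irf9 had gene-end H3K27ac in the WT line alone. Irf9, the DNA-binding part of the complex with Stat2, had a 107 bp peak before its start at percentile 79.8 of the WT list and none in the mutant list. H3K27ac covered 448 bp of the Irf9 window in the mutant line and 706 bp in the WT line. Irf7, the factor that amplifies type I interferon, had an 88 bp peak in the WT line alone, while H3K27ac in its window covered 386 bp in the mutant line and 88 bp in the WT line. The gene-end H3K4me3 of Irf7 was 1694 bp wide in the mutant line and 1692 bp in the WT line. Stat2 had H3K27ac at its start in both lines. Stat3, which signals for cytokines as well as interferon, had a 167 bp H3K27ac peak at its start in the WT line alone. Over the Stat3 window H3K27ac covered 597 bp in the mutant line and 1105 bp in the WT line, H3K4me3 20.1 kb and 23.7 kb, and H3K4me1 1.41 kb and 3.41 kb, all lower in the mutant line. Irf1 and Irf3 had no gene-end H3K27ac in either line, and H3K4me3 at their ends was 2.95 kb and 4.50 kb in the mutant line, against 2.84 kb and 4.27 kb in the WT line.

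Socs3, an inhibitor of Jak kinases that cytokines induce, had many H3K4me1 peaks on both sides of it in the WT line. Socs3 lies at chr11:117966079-117970336. H3K4me1 covered 2.27 kb of its window in 5 peaks in the mutant line, against 22.9 kb in 22 peaks in the WT line. By WT H3K4me1 coverage Socs3 ranked 5 of 21887 protein-coding genes, and by how far mutant lay below WT coverage it ranked 7 (the first 0.0320%), although neighbouring genes share this window. With windows of 20 and 100 kb and in the shortened lists the difference, mutant minus WT, ranged from -21.1 kb to -4.32 kb. H3K4me3 covered 11.2 kb in 3 peaks in the mutant line and 18.9 kb in 8 peaks in the WT line, with a gene-end peak of 5.52 kb in the mutant line and 7.39 kb in the WT line. The difference in H3K4me3 coverage was under 1.5-fold within 20 kb and in the more significant 50% of each list. The single H3K4me1 peak at a gene end of Socs3 was nonetheless in the mutant list alone, a 288 bp peak at the end away from the start. H3K27ac, at 466 bp in the mutant line and 666 bp in the WT line, differed less than H3K4me1 did. The Socs3 promoter (chr11:117969317-117969616, minus strand) is shown because the gene had the largest H3K4me1 difference of the set while H3K4me3 covered its start in both lines. Capitals mark a GAS match.
Socs3 promoter: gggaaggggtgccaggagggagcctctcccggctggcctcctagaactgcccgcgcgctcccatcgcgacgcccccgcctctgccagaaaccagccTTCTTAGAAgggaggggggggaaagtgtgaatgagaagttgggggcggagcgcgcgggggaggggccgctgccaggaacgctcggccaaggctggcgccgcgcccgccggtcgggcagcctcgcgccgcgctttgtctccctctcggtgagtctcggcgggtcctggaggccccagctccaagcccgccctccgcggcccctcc

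Socs1, the related inhibitor, had H3K4me1 in the WT line alone. Its window (gene at chr16:10783808-10785536) held 0 H3K4me1 peaks in the mutant line and 9 peaks covering 4.35 kb in the WT line. The difference of -4.35 kb was -0.931 kb in lists of equal length. The peak near a gene end was 356 bp wide and at percentile 0.20 of the WT list by p value, close to the threshold of that list, and it was in neither shortened list. A 100 bp H3K27ac peak near the start of Socs1 was in the WT list alone, while a mutant peak of 220 bp lay outside the 1 kb reach and ended the difference at 2.5 kb. H3K27ac covered 309 bp of the Socs1 window in the mutant line and 417 bp in the WT line. H3K4me3 at the gene ends was 5.64 kb in the mutant line and 5.47 kb in the WT line.

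Cd274 encodes the checkpoint ligand PD-L1 and lies at chr19:29362107-29388095. By the gene-end rule it had H3K27ac in the mutant line alone, a 107 bp peak at percentile 93.5 of the mutant list. The RefSeq promoter of Cd274 (chr19:29367188-29367487, plus strand) lies inside the gene model, however, and there both lines had H3K27ac just before the promoter window, a 100 bp peak in the mutant line and a 158 bp peak in the WT line. H3K4me3 lay over that promoter in both lines, 2.12 kb wide in the mutant line and 2.32 kb in the WT line, and over the lower gene end, 2.40 kb and 2.02 kb. The Cd274 window as a whole held 430 bp of H3K27ac in the mutant line and 560 bp in the WT line, and no H3K4me1 in either.

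The interferon-induced effectors differed from each other in their marks. Isg15, a ubiquitin-like modifier, had H3K4me3 covering 12.4 kb of its window in the mutant line and 17.4 kb in the WT line. Ifit1, which binds viral RNA, had gene-end H3K4me3 of 3.49 kb in the mutant line and 2.98 kb in the WT line. Ifit3, its partner (chr19:34583119-34588982), had H3K4me3 in the mutant line alone, but the peak was 484 bp wide and at percentile 12.3 of the mutant list, near the weak end, and it was not in the more significant 50%. It did not overlap the RefSeq promoter window of Ifit3. A separate 89 bp H3K27ac peak was also in the mutant list alone, at percentile 68.8. It lay before the gene start, while the H3K4me3 peak lay after it. H3K27ac covered 821 bp of the Ifit3 window in the mutant line and 484 bp in the WT line, and 409 bp and 88 bp of the Ifit1 window. Oas2, which senses double-stranded RNA, had no H3K4me3, H3K27ac or H3K4me1 peak within 50 kb in either line, and WT H3K27me3 covered 13.4 kb of its window in 13 peaks. Such coverage was not particular to genes without active marks. It was 12.4 kb around Tap2, 12.1 kb around Tap1 and 9.43 kb around H2-D1, which had gene-end H3K4me3 in both lines.

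The Ifit and Isg15 promoters are shown because an ISRE is their shared feature and their H3K4me3 is not. Those of Ifit1 (chr19:34640639-34640938, plus strand) and Ifit3 (chr19:34583279-34583578, plus strand) each hold 2 ISRE matches, and that of Isg15 (chr4:156200769-156201068, minus strand) holds 3 that overlap and read as a single run of capitals. Ifit3 has a CCAAT box besides and 1 CpG, the lowest number among the 33 windows. An Irf9 window that lies under H3K4me3 in both lines also has 1 CpG. Ifit1 and Isg15 have 4 and 6 CpG and lie under H3K4me3 in both lines.
Ifit1 promoter: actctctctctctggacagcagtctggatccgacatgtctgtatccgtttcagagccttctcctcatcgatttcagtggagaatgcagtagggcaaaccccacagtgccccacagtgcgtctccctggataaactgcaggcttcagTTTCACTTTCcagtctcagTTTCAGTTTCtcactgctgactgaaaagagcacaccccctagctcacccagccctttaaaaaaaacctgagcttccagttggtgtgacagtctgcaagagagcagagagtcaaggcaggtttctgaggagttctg
Ifit3 promoter: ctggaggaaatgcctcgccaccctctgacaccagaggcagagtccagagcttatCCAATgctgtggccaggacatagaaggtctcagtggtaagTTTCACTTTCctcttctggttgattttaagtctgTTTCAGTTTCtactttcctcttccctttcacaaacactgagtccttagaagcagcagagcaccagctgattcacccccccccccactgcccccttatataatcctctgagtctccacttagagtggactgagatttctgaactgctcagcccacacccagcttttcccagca
Isg15 promoter: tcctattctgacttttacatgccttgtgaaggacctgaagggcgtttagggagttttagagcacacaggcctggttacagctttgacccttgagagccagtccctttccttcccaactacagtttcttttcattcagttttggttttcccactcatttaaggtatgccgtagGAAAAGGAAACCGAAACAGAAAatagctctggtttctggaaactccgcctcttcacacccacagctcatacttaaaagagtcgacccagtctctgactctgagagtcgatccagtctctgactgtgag

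Genes on chromosome 19 need their own background. For every 100 WT peaks on that chromosome the mutant H3K27ac list held 116, against 71.0 over the genome, and the H3K4me1 list 44.6, against 21.0. Of the 3 genes with H3K27ac in the mutant line alone, Cd274 and Ifit3 are on chromosome 19, where 10.2% of protein-coding genes had that state. Of the 8 with more H3K27ac coverage in the mutant line, Ifit1, Ifit3 and Jak2 are there, where the share was 22.4%. The part of the chromosome in these differences was not tested. On chromosome 17, which carries the MHC cluster, the mutant lists held 61.9 H3K27ac and 23.2 H3K4me1 peaks per 100 WT peaks.

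Width of the gene-end H3K4me3 was compared for the 31 genes with peaks in both lines. The median log2 ratio, mutant over WT, was -0.13, against -0.05 over the 12040 genes with peaks in both lines. The peaks were narrower in the mutant line for 19 genes (61.3%) and wider for 12, beside 60.4% narrower over those 12040. The 19 include Tap1, Psmb8 and Psmb9, which share peaks. Past 1.5-fold, no gene was narrower and 2 were wider in the mutant line, Isg15 (log2 ratio 1.02) and Irf9 (0.60), beside 4.92% narrower and 3.33% wider. At Isg15 the summed width was 6.15 kb in the mutant line and 3.04 kb in the WT line, and the mutant sum holds a neighbouring peak that comes within 1 kb of the gene. At Irf9 it was 3.53 kb in the mutant line and 2.33 kb in the WT line. The Calr ratio (0.56) also depends on a neighbouring peak. A mutant peak of 2.28 kb came within 1 kb of Calr, while the WT peak of 2.06 kb there stayed outside that reach. The lowest ratios were -0.42 at Socs3, -0.41 at Ifnar2 and -0.39 at Jak2.

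**Figure D4:**
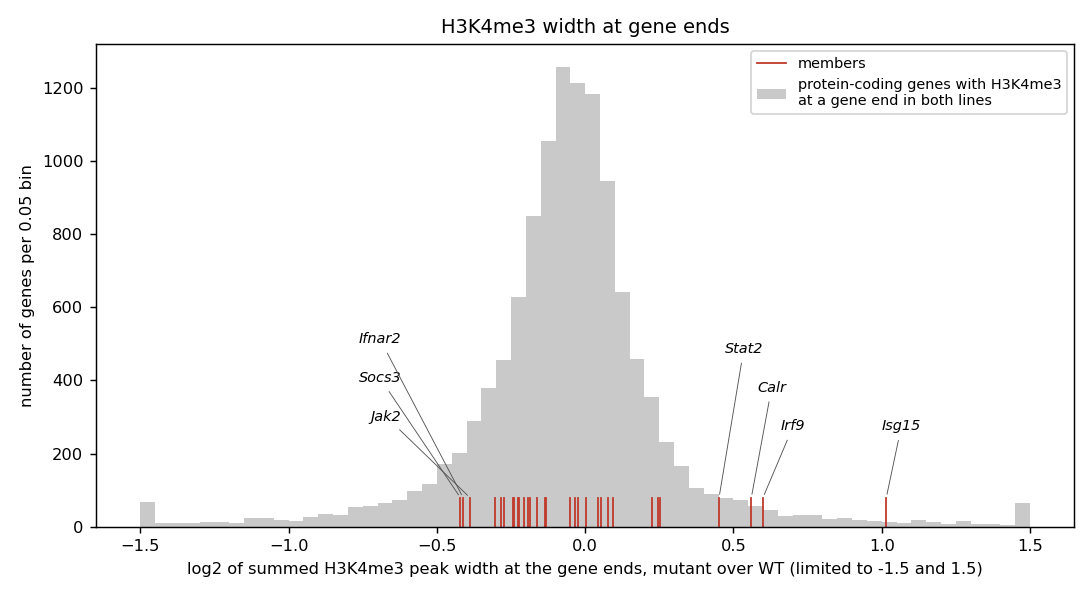
Log2 ratio of the summed gene-end H3K4me3 peak width, mutant over WT (x axis), for the 31 genes with peaks in both lines (red ticks) over a histogram of the 12040 protein-coding genes with peaks in both lines (grey, number of genes per bin of 0.05, values beyond the axis placed in the end bins). The ticks lie within the body of the histogram apart from Isg15 at 1.02 and, less far out, Irf9, Calr and Stat2.

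Regions of higher mutant H3K27me3 were few and small around these genes. Such a region lay within 50 kb of 4 genes, Cd274, Stat3, Ifit1 and Ifit3, beside 5.77% of all genes, and at a gene end of none, beside 0.219%. The region near Cd274 was 398 bp wide. That near Stat3 was 151 bp wide, and Ifit1 and Ifit3 shared another of 151 bp. The width of 151 bp is the smallest in the list, held by 44.7% of its regions.

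Other genes of the same pathways, a list of 41 of which 40 were on the table as protein-coding, were counted in the same way. Gene-end H3K4me3 was present in both lines for 29 of the 40 (72.5%, beside 55.0% of all genes), in the mutant line alone for Ifi44 and Irf8, and in the WT line alone for Zbp1, a nucleic acid sensor whose peak was 0.617 kb wide. Irf8, a factor of myeloid cells, had a 0.942 kb H3K4me3 peak in the mutant line where the WT line had a 4.20 kb H3K27me3 peak over the promoter. The H3K4me3 peak of Ifi44 was 1.03 kb wide. WT H3K27me3 lay at gene ends of 4 of the 40 (10.0%, beside 9.94% of all genes). These were H2-DMa and H2-DMb1, which load peptides on class II, and Irf4 and Irf8. The class II genes H2-Eb1 and Cd74 had none at a gene end, and H2-DMa also had gene-end H3K4me3 and H3K27ac in both lines. H3K27ac at a gene end was found in the mutant line alone for 5 of the 40 genes (12.5%, beside 6.84%), in the WT line alone for 8 (beside 16.1%) and in both for 7 (17.5%, beside 12.6%). H3K27ac coverage was at least 1.5-fold less in the mutant line for 24 genes (60.0%, beside 42.3%) and more for 4 (10.0%, beside 11.8%). The 35 genes had 40.0% and 22.9%. Among genes with gene-end H3K4me3 in both lines the gaps were smaller. Less H3K27ac was found at 17 of 29 (58.6%, beside 54.3% of the 12040) and more at 3 (10.3%, beside 13.4%). The 31 genes of the set had 45.2% and 19.4% there. Gene-end H3K27ac in the mutant line alone was at 4 of the 29 (13.8%, beside 11.0%), and in the WT line alone at 7 (24.1%, beside 27.1%). H3K4me1 coverage was less for 13 of the 40 (32.5%, beside 38.4%) and more for 6 (beside 8.03%).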

How the data were processed

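Peak lists of 8 ChIP libraries (2 lines, 4 marks) were used as deposited; the 4 inputs carry no peak list used here. Per the submitters' processing notes, peaks are on mm10 and the tools named are MACS2, FastQC and MultiQC. The aligner and read depth are not given in the sources at hand. The H3K4me3 lists give a deposited score per peak, −10 times the log10 of its p value. The other lists give a fold enrichment (a ratio over the control), −log10 p and −log10 q values and a rescaled score, all by the authors; the rescaled score, the q values and the deposited summit offset were not used. Controls were read from the file names. H3K4me3 scores recur at a value of 3100, although higher scores occur, so equal scores do not show equal signal.

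Peaks on the 19 autosomes, X and Y were kept. Gene ends were taken from RefSeq's table for GRCm38.p6 (mm10), which gives no strand; promoter windows and strand came from RefSeq. Covered bases are the union of peaks within 50 kb of either gene end. Main counts of members stand beside the share over all 21887 protein-coding genes or over a smaller background named there. For a count that moved under a changed setting, the share given is that of the same setting. With 1 library per line and mark there is no error, test or p-value. Members and lists were chosen with earlier results of these data known. All 35 members are named, with peak widths and coverage of the mark for those whose gene-end state differed and for the 4 with the largest difference in coverage per mark. Alternatives were a distance of 2.5 kb, windows of 20 and 100 kb, lists cut to equal length, the more significant 50% of each list, and leaving out chromosomes 10 and 19; smaller backgrounds were added after seeing the data. 1 marker gene of the planned list is not reported here. The overlap code was tested on simulated data. Python 3.11.15, numpy 2.4.6, pandas 2.3.3 and matplotlib 3.10.9 were used.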

Additional observations from a re-analysis of the deposited data

How the results depend on the processing

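Of 62 alternative values for the counts of genes, 40 were within 1.5 times the reported count and 22 were not. The shares over all protein-coding genes moved with the setting too, and those of the changed setting stand in brackets. With lists cut to equal length (the more significant peaks of the longer list), fewer genes had less mutant coverage. These were 8 in place of 14 for H3K27ac (31.7%, from 42.3%) and 7 in place of 16 for H3K4me1 (13.5%, from 38.4%). More H3K27ac was then found at 13 genes in place of 8 (19.1%, from 11.8%), and more H3K4me3 at 2 in place of 1 (4.44%, from 3.28%). H3K4me1 at a gene end in the WT line alone was then found at 0 genes in place of 3 (0.777%). In the more significant 50% of each list, the counts were 1 gene for that state (2.04%) and 10 with less H3K4me1 (28.4%). There were 2 near a region of higher mutant H3K27me3 in place of 4 (3.45%). H3K4me3 in the mutant line alone (0.288%) and more H3K4me3 (0.740%) were at 0 genes, in place of 1. A window of 20 kb gave 1 gene with less H3K4me3, Irf1, in place of 2 (7.09%). It gave 3 with more H3K4me3 in place of 1 (3.68%), and 2 near mutant-higher H3K27me3 (2.75%). A window of 100 kb gave 0 with more H3K4me3 (2.76%) and 5 with more H3K27ac in place of 8 (9.64%). More H3K4me1 was then at 10 genes in place of 6 (7.17%). A distance of 2.5 kb gave 2 genes with mutant-alone H3K4me1 in place of 1 (5.13%). WT H3K27me3 was then at 5 genes in place of 3 (13.1%), adding Psmb9 and Tap1. Without chromosomes 10 and 19, mutant-alone H3K4me3 (1.61%) and more H3K4me3 (3.06%) were at 0 genes. Mutant-alone H3K27ac was at 1 in place of 3 (6.57%), and more H3K27ac at 5 (11.1%). Of 48 alternative values for the largest coverage differences of single genes, 20 were within 1.5 times, 27 differed by more and 1 changed direction. In lists of equal length the Socs3 H3K4me1 difference was -11.8 kb in place of -20.7 kb, and those of Nlrc5 were -0.566 kb in place of -1.07 kb for H3K27ac and -3.13 kb in place of -5.82 kb for H3K4me1. The H3K4me1 difference at Irf2 was -2.57 kb and reversed to 0.229 kb in lists of equal length. The causes of these shifts were not tested.

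Of the 15 genes with different gene-end H3K27ac, B2m, Nlrc5, Stat3, Irf7, Irf9, Cd274 and Ifit3 had the same state at 2.5 kb and in both kinds of shortened list; the states of Tap1, Tap2, Tapbp and Jak1 were lost in both shortened lists, that of H2-D1 in the more significant 50%, and those of Ifnar2, Irf2 and Socs1 at 2.5 kb. The H3K4me1 state of Socs3 was the same in all 3, that of Calr in none. Peak presence depends on depth and threshold, which could not be equalised from these files. No paired analysis was possible because each line has 1 library per mark.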
